A study of Homo sapiens with 8 samples.

Results

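HepaRG cells exposed to troglitazone at 50 µM were compared with HepaRG cells exposed to the solvent, dimethyl sulfoxide (DMSO). The cells were chosen by the sample name that the authors' cell table gives each cell, either troglitazone 50 µM or DMSO control. Of the 12976 cells in the Parse Evercode experiment, 1188 carried a troglitazone name and 934 a DMSO name. The sample names also begin with a number (1, 3, 4, 5 or 6), called the run here, and end in a replicate number. In both groups, runs 1, 3, 4, 5 and 6 carry the replicate numbers 1, 2, 3, 4 and 5. Each name was treated as 1 culture. Names with fewer than 30 cells were left out of every test, which removed the 20 troglitazone and 4 DMSO cells of run 1. This left 4 troglitazone cultures of 306, 187, 383 and 292 cells and 4 DMSO cultures of 312, 128, 393 and 97 cells, from runs 3, 4, 5 and 6.

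HepaRG is a human hepatic cell line that differentiates into hepatocyte-like and biliary-like cells. Terminally differentiated cells were grown for 7 days on collagen and then treated for 24 h, with DMSO at 0.1% in all treatments and in the DMSO control. The protocol text of the study lists 0.001 µM, 0.01 µM and 0.1 µM for troglitazone, whereas the cell table names 50 µM for every troglitazone cell. The dose printed here is that of the cell table, and it could not be checked against another file. The study states 1 biological replicate per condition for its main experiment, which used another single-cell platform. Its methods for the Parse experiment give no number of replicates. The labels and methods do not say what the run number or the replicate number stands for. The spread between cultures may therefore be technical. All p-values below measure only that spread. Cells from all 8 sublibraries, the pools that were sequenced separately, entered both groups.

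Troglitazone is a thiazolidinedione that binds and activates the nuclear receptor PPARγ. Ligand-bound PPARγ pairs with a retinoid X receptor and switches on genes of fatty acid uptake, binding and storage, a programme best known from fat cells, while its relative PPARα drives fatty acid oxidation in hepatocytes. Thiazolidinediones can also bind the xenobiotic receptor PXR, which together with CAR controls drug-metabolising cytochrome P450 genes in the liver. The comparison addresses which of these programmes, and which stress responses, moved in the troglitazone cells.

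Sequencing depth differed between cultures. The troglitazone cultures held 20802667, 6740168, 46668253 and 8841383 UMIs and the DMSO cultures 14770711, 3435397, 38829418 and 4987795, in the order of the runs. A UMI is a unique molecular identifier, so that each captured RNA molecule is counted once. No cell had fewer than 7749 UMIs or 2682 genes. Levels are given as CPM of nuclear UMIs, the usual scaled count, taken here relative to the UMIs outside the mitochondrially encoded MT- genes, and fold changes are troglitazone over DMSO. In summed counts, more cells that express a gene and more RNA per cell cannot be told apart.

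Troglitazone cells had higher levels of the fatty acid genes FABP4, CD36, PDK4 and LIPE and of the matrix genes LAMA4 and LTBP1. Across all cells, 19443 genes were tested and 13 were higher with troglitazone at a Benjamini-Hochberg adjusted p under 0.05 (0.0669% of those tested), while 0 were lower. At an unadjusted p under 0.05, 352 genes were higher (1.81%) and 213 were lower, and over all genes the log2 fold change had a median of 0.00. DESeq2 called 61 genes higher and 8 lower on the same sums. A fit that also allowed for the run, given in the closing section, called more genes higher and some lower. The calls below come from the fit without the run. Of the 13 genes, 10 code for proteins and 3 are long non-coding RNAs. In simulated counts with these library sizes, 46% of genes changed 2-fold and 98% of genes changed 4-fold were recovered, so changes under 2-fold were mostly out of reach.

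**Figure D1:**
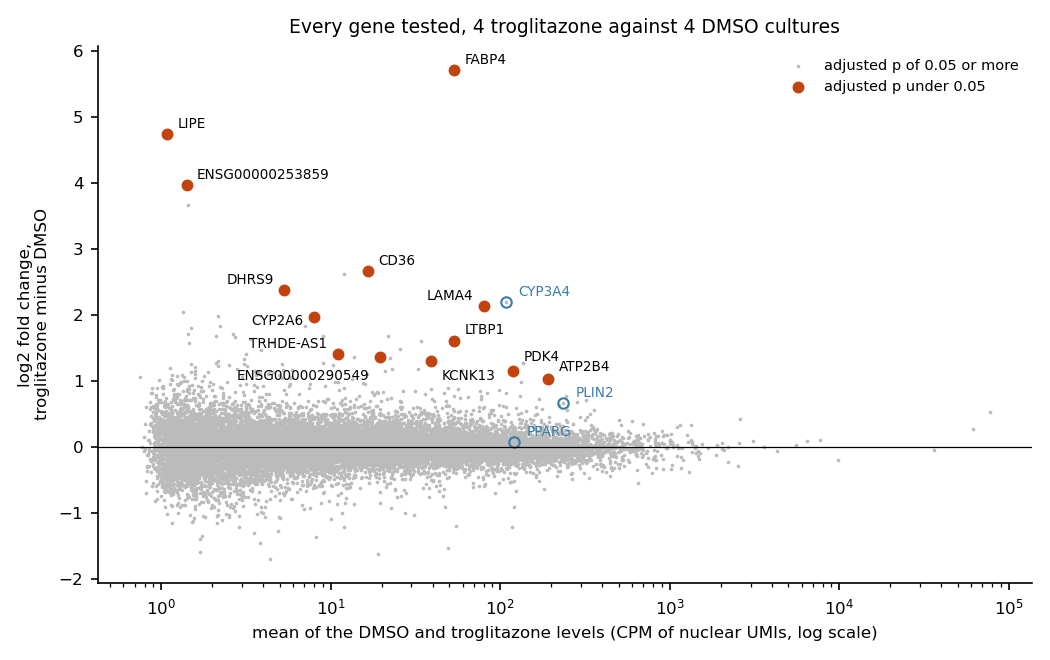
Log2 fold change (y axis) against the mean of the 2 group levels in CPM of nuclear UMIs (x axis, log scale) for the 19443 genes tested in 4 troglitazone against 4 DMSO cultures. The 13 genes with an adjusted p under 0.05 (orange) all lie above 0, FABP4 highest at 5.72, and CYP3A4, PLIN2 and PPARG (blue circles) did not pass the test.

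FABP4, the fatty acid binding protein of fat cells and a textbook PPARγ target, showed the largest rise. Its level was 2.72, 0.604, 2.38 and 0.694 CPM in the DMSO cultures of runs 3 to 6 and 63.4, 76.6, 127 and 153 CPM in the troglitazone cultures. The groups did not overlap, and each troglitazone culture lay far above every DMSO culture. The means were 1.60 ± 1.11 and 105 ± 42.1 CPM (SD, n = 4 each), from 117 and 7508 UMIs, and the log2 fold change was 5.72 with a standard error of 0.42 and an adjusted p of 4.30e-04. FABP4 (ENSG00000170323) lies on chromosome 8 at 81478419-81483236 on the minus strand of GRCh38.

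The rise of FABP4 was seen in the share of cells as well. With every cell thinned to 5000 UMIs, at least 1 FABP4 UMI was found in 13.1%, 23.0%, 23.2% and 24.3% of the troglitazone cells of runs 3 to 6. In the DMSO cells the shares were 0.962%, 0%, 1.02% and 0%. Without thinning, the shares were 39.2%, 41.2%, 56.9% and 46.2% in the troglitazone cells, at medians of 46328, 23089, 83402 and 22454 UMIs per cell. The DMSO cells gave 8.33%, 1.56%, 11.5% and 3.09% at medians of 29106, 17093.5, 68055 and 32905 UMIs. At the thinned depth, then, most troglitazone cells of every culture had no FABP4 UMI.

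ENSG00000253859, a long non-coding RNA gene, spans FABP4 on the opposite strand. It rose from 8 to 175 UMIs over the cultures of each group (log2 fold change 3.97, adjusted p 0.00409). Whether the counting used the strand of the reads is not given in the sources used here, so reads of this gene and of FABP4 cannot be told apart with certainty.

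CD36, a fatty acid transporter of the cell surface, and PDK4, a kinase that inhibits pyruvate dehydrogenase and so shifts fuel use towards fatty acids, also rose. CD36 read 4.405, 4.53, 3.81 and 5.78 CPM with DMSO and 24.7, 28.1, 31.5 and 30.5 CPM with troglitazone. Its group means differed 6.19-fold (log2 fold change 2.66, standard error 0.19, adjusted p 4.30e-04). PDK4 was at 76.2, 63.5, 82.3 and 73.1 CPM with DMSO and at 159, 161, 185 and 154 CPM with troglitazone. This was a 2.23-fold difference of the means (log2 1.16, standard error 0.12, adjusted p 0.00409). Neither gene overlapped between the groups, and both varied less between cultures than FABP4 did.

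LIPE, the hormone-sensitive lipase that releases fatty acids from stored fat, was close to undetected in DMSO cells. It had 4 UMIs in the 4 DMSO cultures, 2 of which held none, and 152 UMIs in the troglitazone cultures, where it read 3.08, 2.18, 2.14 and 1.13 CPM (adjusted p 0.00774). The antisense gene LIPE-AS1 overlaps it on the other strand, with 2.87 ± 0.936 CPM in DMSO and 11.2 ± 4.88 CPM in troglitazone cultures, and did not pass the test across all cells (adjusted p 0.146). ADIPOQ, which codes for the fat cell hormone adiponectin, was below the filter on low counts and was not tested. It had 0, 0, 0.153 and 0 CPM with DMSO and 0.514, 4.35, 1.53 and 3.64 CPM with troglitazone, and with no such filter it was called higher (log2 fold change 4.58, adjusted p 0.0179). ADIPOQ was singled out after its values were seen, as were LIPE, DHRS9, CYP2A6 and the non-coding genes.

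**Figure D2:**
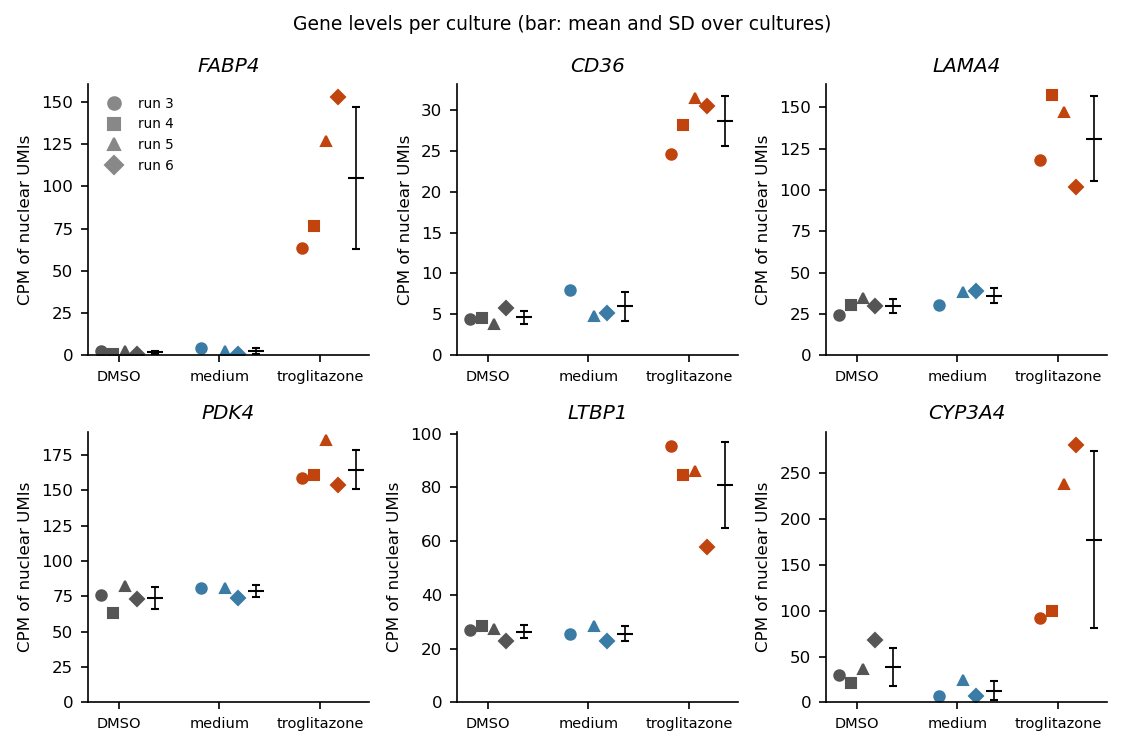
Level in CPM of nuclear UMIs (y axis) of 6 genes in each culture of DMSO, medium and troglitazone (x axis), with run shown by the shape of the point and bars for the mean and SD over cultures. The troglitazone cultures of FABP4, CD36, LAMA4, PDK4, LTBP1 and CYP3A4 all sit above every DMSO culture, and CYP3A4 has the widest spread, from 92.2 to 282 CPM.

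The other genes that rose have roles outside fat storage. LAMA4, a laminin chain of basement membranes, read 24.6, 30.5, 34.4 and 29.6 CPM with DMSO and 118, 157, 147 and 102 CPM with troglitazone (log2 fold change 2.14, standard error 0.17, adjusted p 6.03e-04). LTBP1, which binds latent TGF-β in the extracellular matrix, read 27.1, 28.4, 27.3 and 22.7 CPM with DMSO and 95.2, 84.5, 85.9 and 57.8 CPM with troglitazone (log2 1.62, adjusted p 0.00409). For both matrix genes the lowest troglitazone culture was that of run 6, still more than 2 times the highest DMSO culture.

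KCNK13, a potassium channel, was almost constant in the DMSO cultures at 22.2 to 22.7 CPM and reached 44.4 to 72.9 CPM with troglitazone (log2 1.31, adjusted p 0.0167). The medium cultures of runs 3, 5 and 6 spread more widely for KCNK13, at 14.7, 24.8 and 31.3 CPM. ATP2B4, a calcium pump of the plasma membrane, went from 126 ± 20.5 to 257 ± 34.9 CPM (log2 1.03, standard error 0.15, adjusted p 0.0398). DHRS9, a dehydrogenase that acts on retinoids and steroids, went from 1.73 ± 0.572 to 8.88 ± 2.05 CPM (log2 2.38, adjusted p 0.0103). CYP2A6, the P450 enzyme that oxidises nicotine, went from 3.33 ± 0.679 to 12.6 ± 3.68 CPM (log2 1.98, adjusted p 0.0398). CYP2A6 has a close neighbouring paralog, CYP2A7, at 1.70 ± 0.699 and 4.44 ± 2.52 CPM (adjusted p 1), and reads may be split between them. The 2 remaining genes are the long non-coding RNAs TRHDE-AS1 (log2 1.41, adjusted p 0.044) and ENSG00000290549 (log2 1.37, adjusted p 0.0202). ENSG00000290549 overlaps AQP7P1, a pseudogene copy of the glycerol channel gene AQP7, so its count is uncertain.

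These 13 calls did not rest equally on the cultures. FABP4, CD36, LAMA4 and PDK4 were called in 23 of 24 alternative settings and LTBP1 in 22, whereas ATP2B4 was called in 14, TRHDE-AS1 in 13 and CYP2A6 in 12. KCNK13 and ENSG00000290549 were called in 16 each, and neither was called when any 1 DMSO culture was left out. LIPE was called in 15 and had a value in 20. It was not called with the medium control in place of DMSO. Without both cultures of run 4, 5 genes were called, which were FABP4, CD36, LAMA4, PDK4 and ENSG00000253859. On GRCh38, CD36 (ENSG00000135218) lies on chromosome 7 at 80369575-80679277, LAMA4 (ENSG00000112769) on chromosome 6 at 112107931-112254939, PDK4 (ENSG00000004799) on chromosome 7 at 95583499-95596516 and LTBP1 (ENSG00000049323) on chromosome 2 at 32946953-33399509.

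The list of PPAR target genes held 38 members, of which 33 passed the filter on low counts. Of these 33, 3 rose (FABP4, CD36 and PDK4) and 0 fell, and their median log2 fold change was 0.33 beside 0.00 for all genes. At an unadjusted p under 0.05, 12 members were higher and 0 lower, beside 1.81% of all genes higher. In 10 of the 33, every troglitazone culture was above every DMSO culture, as in 1.51% of all genes. FABP3, CIDEA, FGF21, UCP2 and ADIPOQ were not tested. The list was written with earlier results of these data known, so these counts are a description and not independent support.

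The perilipins coat lipid droplets, and PLIN2 is the form found in most cells, including hepatocytes. PLIN2 read 168, 159, 196 and 204 CPM with DMSO and 268, 234, 322 and 334 CPM with troglitazone, without overlap (log2 0.67, standard error 0.14), but its adjusted p was 0.246. PLIN4 read 13.5, 13.6, 28.4 and 10.4 CPM with DMSO and 72.4, 54.5, 39.7 and 41.0 CPM with troglitazone (log2 1.61, adjusted p 0.195). PLIN1, the fat cell form, had 2.82 ± 1.20 and 6.31 ± 0.865 CPM (adjusted p 0.627), and PLIN5, a form of oxidative tissues, had 21.5 ± 1.499 and 23.1 ± 2.17 CPM (adjusted p 1). The troglitazone means were thus 1.59-fold, 3.15-fold and 2.24-fold those of DMSO for PLIN2, PLIN4 and PLIN1, and none of the 3 passed the test.

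ANGPTL4, a secreted inhibitor of lipoprotein lipase, read 21.0, 20.2, 29.2 and 18.5 CPM with DMSO and 33.9, 41.5, 45.04 and 42.5 CPM with troglitazone (log2 0.86, adjusted p 0.207). VNN1, a pantetheinase, TXNIP, an inhibitor of thioredoxin, and LPIN1, a phosphatidate phosphatase, also did not overlap between groups, with log2 fold changes of 1.19, 0.91 and 0.32 and adjusted p-values of 0.163, 0.284 and 1. LPL, the lipoprotein lipase itself, had 59.4 ± 4.61 and 78.0 ± 24.8 CPM. CIDEC, which enlarges lipid droplets, had 26.0 ± 6.88 and 31.9 ± 9.15 CPM, and FABP1, the fatty acid binding protein of liver, 27.5 ± 9.73 and 51.1 ± 34.2 CPM. The groups overlapped for LPL, CIDEC and FABP1.

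The genes of fatty acid oxidation described here did not pass the test. CPT1A, which brings fatty acids into mitochondria, had a log2 fold change of 0.05. ACADVL had the highest value of the acyl-CoA dehydrogenases, 0.69, with overlapping groups, and ACADL the lowest, -0.20. The values were 0.20 for ACADM, 0.23 for HADHA, 0.25 for HADHB, 0.29 for EHHADH and ACAA2, 0.24 for CPT2, 0.33 for SLC25A20, 0.17 for ETFDH and 0.53 for CYP4A11. The acyl-CoA synthetases ACSL1 and ACSL3 gave 0.40 and -0.06, and the transcription factor CREB3L3 gave 0.35. All of these genes had an adjusted p of 1.

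The receptor genes did not pass the test. PPARG read 102, 129, 98.2 and 140 CPM with DMSO and 99.1, 151, 115 and 131 CPM with troglitazone (log2 0.08). PPARA was 290 ± 11.5 and 255 ± 12.7 CPM, lower in every troglitazone culture, with a log2 fold change of -0.19 and an adjusted p of 1. Of the 11 receptors, partners and coregulators on that list, all 11 were tested and 0 were called, and their log2 fold changes had a median of 0.08.

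The list of PXR and CAR targets held 15 genes of drug metabolism, all tested. None passed the test across all cells. At an unadjusted p under 0.05, 8 of the 15 were higher, beside 1.81% of all genes, and 6 were higher without overlap between groups, beside 1.51%. The median log2 fold change was 0.43 beside 0.00 for all genes. This list too was written with earlier results of these data known. CYP3A4, the main drug-metabolising P450 of liver, read 29.8, 21.2, 36.5 and 68.0 CPM with DMSO and 92.2, 99.3, 238 and 282 CPM with troglitazone. Its log2 fold change was 2.20 with a standard error of 0.43, and its adjusted p was 0.195. The spread between its troglitazone cultures was about 3-fold, with runs 5 and 6 above runs 3 and 4. CYP2B6, the P450 that responds to CAR, read 14.0, 12.99, 14.9 and 12.03 CPM with DMSO and 37.8, 23.8, 53.6 and 36.1 CPM with troglitazone (log2 1.48, standard error 0.23, adjusted p 0.0582).

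The 250 bases before the start of CYP3A4 and CYP2B6 in RefSeq (GRCh38.p14) are shown because these 2 genes had the largest fold changes of that list. CYP3A4 is on the minus strand, at chr7:99784185-99784434, and CYP2B6 on the plus strand, at chr19:40991032-40991281. Capitals mark AGGTCA, the half-site that many nuclear receptors recognise, and in CYP3A4 also TGAACT, which ends 6 bases before it.
CYP3A4: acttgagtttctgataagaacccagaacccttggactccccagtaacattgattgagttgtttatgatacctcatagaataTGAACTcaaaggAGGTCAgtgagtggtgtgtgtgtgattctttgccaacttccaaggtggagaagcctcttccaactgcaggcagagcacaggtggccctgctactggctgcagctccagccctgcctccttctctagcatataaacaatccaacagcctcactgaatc
CYP2B6: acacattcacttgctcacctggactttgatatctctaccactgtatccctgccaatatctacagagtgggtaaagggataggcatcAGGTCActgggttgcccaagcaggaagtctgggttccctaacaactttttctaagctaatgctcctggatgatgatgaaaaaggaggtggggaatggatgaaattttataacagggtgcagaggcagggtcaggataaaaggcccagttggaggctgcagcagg
The half-site begins 157 bases before the start of CYP3A4 and 164 bases before that of CYP2B6. On either strand, AGGTCA occurs in 4242 of 35116 such windows (12.1%), and TGAACT followed after 6 bases by AGGTCA in 3 of them (0.00854%), those of CYP3A4, CYP3A5 and ITGB1BP2. A match is a description of the letters and not a measured binding site.

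Other members of the list followed with smaller values. CYP2C19 had 36.8 ± 5.62 and 83.1 ± 25.2 CPM (log2 1.18, adjusted p 0.146) and CYP3A43 20.0 ± 2.75 and 45.8 ± 13.02 CPM (log2 1.19, adjusted p 0.151), both without overlap. CYP3A5, a related P450, varied little within groups, at 2218 ± 65.3 and 2980 ± 123 CPM, again without overlap (log2 0.43, adjusted p 0.627). CYP3A genes are close paralogs, and reads may be split between them. POR, the reductase that passes electrons to P450 enzymes, read 117, 119, 156 and 123 CPM with DMSO and 223, 199, 182 and 181 CPM with troglitazone (log2 0.60, adjusted p 0.251). The efflux pumps ABCB1 and ABCC2 and the conjugating enzymes UGT1A1 and SULT2A1 overlapped between groups, with log2 fold changes of 0.11, 0.15, 0.12 and 0.05.

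The medium control gave CYP3A4 levels of 6.74, 24.8 and 6.60 CPM in runs 3, 5 and 6, below the DMSO cultures of the same runs. With these medium cultures of runs 3, 5 and 6 in place of DMSO, 10 genes were called higher and 0 lower. They were not all the genes called against DMSO. ATP2B4, KCNK13, LIPE, TRHDE-AS1 and ENSG00000290549 were called against DMSO and not against medium.

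Restricting both groups to cells with at most 20% MT- UMIs, the filter that the study describes, left 50, 182, 204 and 289 troglitazone cells and 250, 127, 311 and 93 DMSO cells. Here 17954 genes were tested, 14 were higher (0.078%) and 0 were lower. The median log2 fold change was 0.00, and 292 genes were higher and 161 lower at an unadjusted p under 0.05. Of the 14 genes, 10 were among the 13 called across all cells. FABP4 remained at 60.8 to 139 CPM with troglitazone against 0.585 to 2.39 CPM with DMSO (log2 5.87, adjusted p 5.43e-05, levels here relative to all UMIs). CD36, LAMA4 and PDK4 had log2 fold changes of 2.73, 2.26 and 1.16. This fit differs from the one across all cells in both the cells and the scaling. LIPE, which was not tested here, CYP2A6 and ENSG00000290549 were called across all cells and not in this fit. With the same cells scaled by UMIs outside MT- genes, ENSG00000290549 was called (adjusted p 0.0461), whereas CYP2A6 (0.167) and ATP2B4 (0.0636) were not. CYP3A43 (log2 1.39, adjusted p 0.0237), MLIP, a protein that binds lamin A (log2 0.99, adjusted p 0.0478), LIPE-AS1 (log2 2.15, adjusted p 0.0478) and the pseudogene ENSG00000277737 (log2 2.73, adjusted p 0.029) were called in this fit and not across all cells. With the scaling outside MT- genes, MLIP (adjusted p 0.0976) and LIPE-AS1 (0.0747) lost their call. In cells above 20% MT- UMIs, where 2 cultures per group held at least 30 cells, 0 genes were called, with 315 higher and 196 lower at an unadjusted p under 0.05.

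The mitochondrial share itself differed more between runs than between groups. MT- genes took 15.5%, 3.67%, 15.6% and 13.3% of the UMIs of the DMSO cultures and 25.1%, 4.54%, 18.8% and 9.80% of those of the troglitazone cultures. The difference, troglitazone minus DMSO, was 9.68, 0.868, 3.27 and -3.54 percentage points within runs 3, 4, 5 and 6. The group means were 12.01% ± 5.66 and 14.6% ± 9.19 (SD, n = 4 each), and a two-sided exact permutation test over the 70 splits gave p = 0.657, where the smallest possible p is 0.0286. The share of troglitazone cells above 20% was 83.7% in run 3, 2.67% in run 4, 46.7% in run 5 and 1.03% in run 6, so most troglitazone cells exceeded that limit in run 3 alone. The DMSO shares above the limit were 19.9%, 0.781%, 20.9% and 4.12%.

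**Figure D3:**
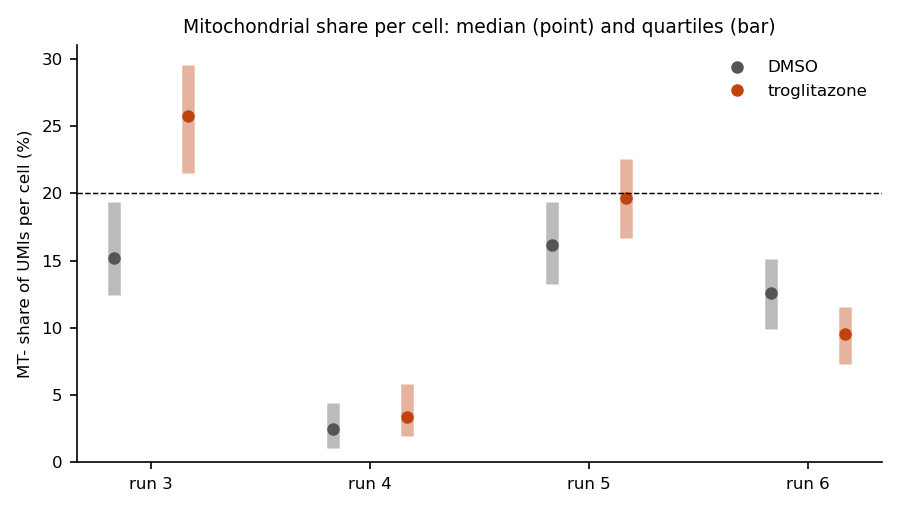
Share of MT- UMIs per cell in percent (y axis) for the DMSO and troglitazone cultures of each run (x axis), as the median over cells (point) and the quartiles (bar), with the 20% limit as a dashed line. The troglitazone median is 25.7% in run 3 against 15.2% with DMSO, and 9.53% against 12.6% in run 6, where the order is the opposite.

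No single gene of the stress response lists passed the test, and no list was tested as a set. Of the 35 gene lists looked at, the PPAR targets alone had a called member across all cells, and the other 34 had none. Since 0.0669% of all genes tested were called, a list of this size would seldom hold a call. The absence of calls therefore does not show that a stress response was unchanged. The median log2 fold change was 0.10 for 22 NRF2 targets, which answer to oxidative stress, and -0.01 for 24 genes of the integrated stress response. It was -0.01 for 23 genes of protein folding in the endoplasmic reticulum, -0.11 for 18 heat shock genes, -0.02 for 20 p53 targets and 0.00 for 18 apoptosis genes. DDIT3, the stress factor CHOP, read 92.0, 92.8, 141 and 93.9 CPM with DMSO and 106, 82.7, 125 and 109 CPM with troglitazone (log2 0.01). The chaperones HSP90AA1 and DNAJA1 gave -0.23 and -0.03. AKR1C1 and AKR1C3, aldo-keto reductases of steroid metabolism, gave 0.42 and 0.37 with overlapping groups. Plasma protein genes had a median of -0.20 over 22 genes and cholesterol synthesis one of 0.03 over 23.

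The hepatic label was checked against markers. ALB, the gene of serum albumin, stood at 5457 to 18510 CPM with DMSO and at 1923 to 14233 CPM with troglitazone, and the 8 hepatocyte markers were all tested with 0 called. Summed over the 6 biliary markers, the level was 97.3 to 172 CPM with DMSO and 74.4 to 135 CPM with troglitazone, with KRT7 at no more than 1.55 CPM in any culture. The 7 stellate or fibroblast markers summed to 130 to 260 CPM and 121 to 184 CPM, with COL1A2 at or near 0. The 5 endothelial markers summed to 63.3 to 114 CPM with DMSO and 41.3 to 58.1 CPM with troglitazone. That lower sum came from KDR, the VEGF receptor, at 76.2 ± 22.1 and 33.3 ± 9.17 CPM (log2 -1.20, adjusted p 0.207), whereas VWF, CDH5 and STAB2 were at or below 1.00 CPM in every culture. Of these 5 markers, 2 were tested and 0 called, and the level of PECAM1 is not given here. The longer list of endothelial genes had 3 tested members, with log2 fold changes from -1.20 to 0.64. Its members thus did not share 1 direction. The part of cell type shares in the results across all cells was not tested in that fit, and levels within clusters of cells are given next.

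The 2098 cells of the 8 cultures were clustered, which gave 8 clusters. Left out of the clustering were the MT- genes, the genes called in either fit above, the PPAR and PXR/CAR lists and the genes the study names for troglitazone. Other genes described within clusters below were not left out and could shape the clusters. Among them are GPD1, DGAT2, ACSL5, AQP7, SCD, ACACB, ITGA11, VCAN and KDR. Cluster 6 (324 cells) was hepatocyte-like, with APOA1, FABP1 and UGT2B4 among its leading genes and mean ALB of 25980 CPM in DMSO cells. Its ALB ranged from 18780 to 38330 CPM in the DMSO cultures and from 2793 to 30230 CPM in the troglitazone cultures. APOA1 ranged from 593 to 1088 CPM and from 31.6 to 1125 CPM, and HNF4A from 212 to 331 CPM and from 217 to 284 CPM. Cluster 5 (374 cells) was led by COL3A1, RANBP3L and DCN, and its mean ALB was 782 CPM. Cluster 7 (206 cells) was led by TACR1, CADM3 and GPM6B, and cluster 1 (316 cells) by TINAG, CTSE and TENM2-AS1. Clusters other than 6 are called by their numbers. These 4 clusters held at least 10 cells in every culture, and troglitazone was compared with DMSO within each.

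In cluster 5, 37 of 11565 genes were higher with troglitazone (0.32%) and 5 were lower (0.0432%). In cluster 7, 14 of 8878 were higher (0.158%) and 3 were lower (0.0338%). In cluster 1, 2 of 11925 were higher (0.0168%), FABP4 and LAMA4. In cluster 6, 0 of 12411 genes passed in either direction with edgeR, with 208 higher and 131 lower at an unadjusted p under 0.05. The clusters differed in depth, with 644101 to 8117303 nuclear UMIs per culture in cluster 5, 302990 to 6566786 in cluster 6 and 289226 to 1430179 in cluster 7. More calls in one cluster are therefore not by themselves a larger response.

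The level of FABP4 with troglitazone differed between clusters. Its means in clusters 1, 2, 3, 4 and 8 were 57.8, 83.7, 67.5, 13.6 and 40.6 CPM with troglitazone. With DMSO they were 0.333 to 1.98 CPM, and of these clusters only cluster 1 was tested. In cluster 5 FABP4 read 5.96, 1.55, 5.07 and 1.20 CPM with DMSO and 273, 143, 328 and 421 CPM with troglitazone (log2 6.07, adjusted p 1.59e-05). In cluster 7 the levels were 6.67, 0, 4.20 and 0 CPM with DMSO and 186, 178, 306 and 698 CPM with troglitazone. In the hepatocyte-like cluster 6 they were 0.839, 0, 0 and 0 CPM with DMSO, 1 UMI in all, and 1.53, 9.88, 12.6 and 8.15 CPM with troglitazone. The levels with troglitazone in clusters 5 and 7 thus lay more than 10 times above those in cluster 6 in every culture, while the difference of the fold changes between clusters 5 and 6 could not be measured (0.73 on the log2 scale, standard error 4.99), since cluster 6 had 1 UMI with DMSO.

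**Figure D4:**
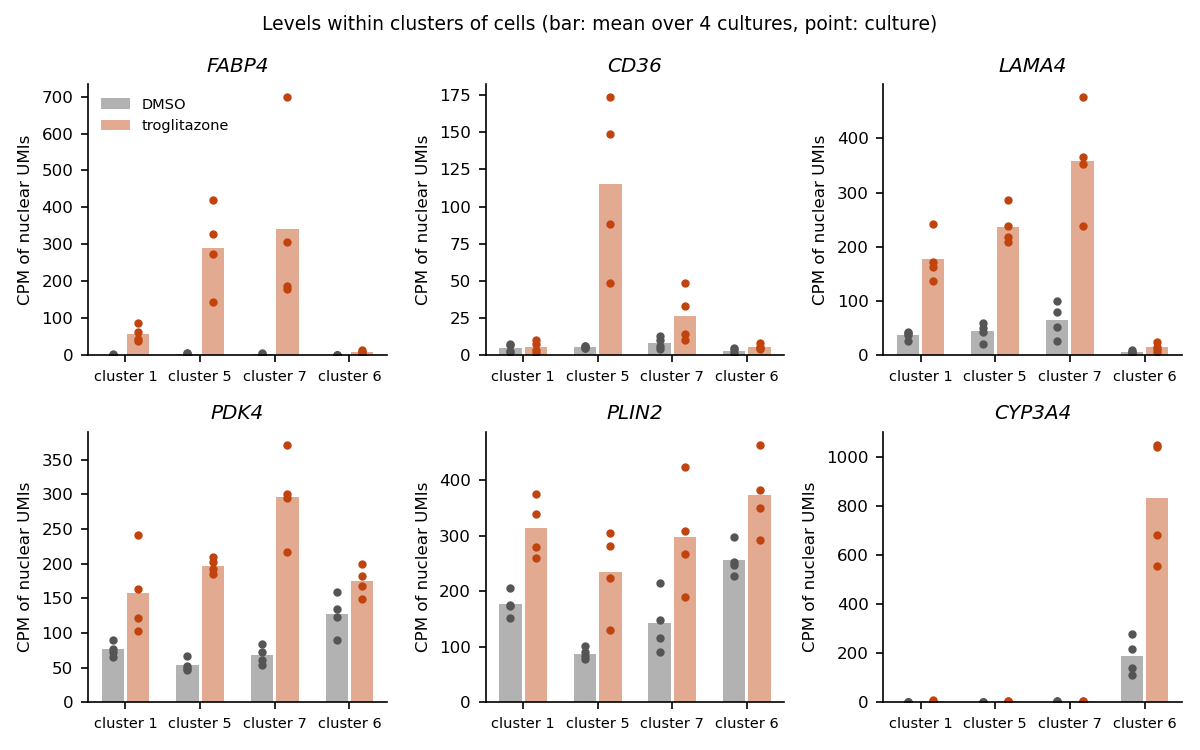
Level in CPM of nuclear UMIs (y axis) of 6 genes within clusters 1, 5, 7 and 6 (x axis) for DMSO (grey) and troglitazone (orange), as the mean over 4 cultures (bar) and the single cultures (points). FABP4 and LAMA4 are high with troglitazone in clusters 1, 5 and 7, CD36 is highest in cluster 5 (115 CPM) and near its DMSO level in cluster 1 (5.78 against 4.90 CPM), and of these 4 clusters CYP3A4 is highest in cluster 6, at 833 CPM with troglitazone and 188 CPM with DMSO.

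CD36 in cluster 5 read 5.11, 4.66, 5.88 and 5.98 CPM with DMSO and 173, 48.8, 88.5 and 149 CPM with troglitazone (log2 4.33, adjusted p 2.17e-04). In cluster 6 its means were 2.70 ± 2.20 and 5.55 ± 1.65 CPM. The difference of its fold changes, cluster 5 minus cluster 6, was 3.36 on the log2 scale with an adjusted p of 0.159. PDK4 read 51.9, 66.8, 47.1 and 49.0 CPM with DMSO and 209, 192, 185 and 202 CPM with troglitazone in cluster 5 (log2 1.90, adjusted p 1.497e-04). In cluster 6 it was at 127 ± 28.8 and 175 ± 21.0 CPM (log2 0.47). With DMSO, PDK4 was thus lower in cluster 5 than in cluster 6 in every run, a comparison given with no test.

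A test of the difference in fold change between clusters 5 and 6 called 3 of 13101 genes, all larger in cluster 5 (0.0229%). They were PDK4, with a difference of 1.44 on the log2 scale, GPD1, with 2.17, and DGAT2, with 2.48, each with an adjusted p of 0.0238. GPD1 makes the glycerol 3-phosphate backbone of triglycerides, and DGAT2 adds the last fatty acid to them. GPD1 in cluster 5 read 5.96, 3.10, 11.9 and 5.98 CPM with DMSO and 41.6, 50.7, 39.2 and 54.8 CPM with troglitazone (log2 2.49), against means of 22.4 and 29.4 CPM in cluster 6. DGAT2 was at 12.5 ± 6.55 and 36.1 ± 9.62 CPM in cluster 5 (adjusted p 0.107) and at 55.8 ± 11.6 and 30.5 ± 13.1 CPM in cluster 6 (adjusted p 1). Its levels went in opposite directions in the 2 clusters, and neither change passed the test alone.

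Of the 37 genes higher in cluster 5, 9 were called across all cells and 28 were not. Those described here were picked from the 28 after their values were seen. PLIN2 (log2 1.41, adjusted p 0.0208) and PLIN4 (1.81, 0.0152) passed the test here. So did ACSL5, a fatty acid activating enzyme, from 80.8 ± 14.6 to 213 ± 21.8 CPM (log2 1.37), and AQP7, a channel that lets glycerol out of cells and whose pseudogene copies may share its reads, from 2.54 ± 0.832 to 11.8 ± 2.68 CPM (log2 2.15). SCD, which desaturates fatty acids, went from 380 ± 62.6 to 708 ± 119 CPM (log2 0.89, adjusted p 0.0408), and ACACB, the acetyl-CoA carboxylase of mitochondria, from 128 ± 43.0 to 350 ± 93.2 CPM (log2 1.42, adjusted p 0.0251). AKR1B10, an aldo-keto reductase counted among the NRF2 targets, rose with a log2 fold change of 1.11 as 1 of 19 tested members of that list.

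Of the 25 PPAR targets tested in cluster 5, 5 rose (FABP4, CD36, PDK4, PLIN2 and PLIN4), beside 0.32% of all genes, and 0 fell, and the list's log2 fold changes had a median of 0.61 beside -0.01 for all genes. Of 15 genes tested from the list headed fatty acid synthesis, 2 rose in cluster 5, SCD and ACACB, again beside 0.32% of all genes. That list's median was 0.32 beside -0.01. In cluster 6, 0 of these 15 genes passed the test, and their median was -0.07 beside 0.01 for all genes. The difference between the clusters was not tested for the list. Both lists were written with earlier results of these data known.

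The 5 genes that fell in cluster 5 included parts of the matrix and its receptors. ITGA11, a collagen-binding integrin chain, went from 190 ± 11.97 to 72.4 ± 17.2 CPM (log2 -1.39, adjusted p 0.00352), and VCAN, a matrix proteoglycan, from 125 ± 25.3 to 52.0 ± 11.7 CPM (log2 -1.26, adjusted p 0.022). CEMIP, which degrades hyaluronan, fell by 1.94 on the log2 scale, SLC30A8, a zinc transporter, by 2.05, and NALCN, a sodium leak channel, by 1.89. These falls rested on single cultures more than the rises did. The count of genes lower in cluster 5 was 1 without the DMSO culture of run 3, the troglitazone culture of run 3, the DMSO culture of run 4 or both cultures of run 4. It was 2 without the DMSO culture of run 6 and in cells of at most 20% MT- UMIs, 3 without the troglitazone culture of run 5, and 4 to 6 without each of the other 3 cultures. In cluster 7 the 3 genes that fell were KDR, from 193 ± 53.2 to 54.1 ± 22.2 CPM (log2 -1.77, adjusted p 0.0194), SNTB1, a syntrophin, and SLC7A2, a transporter of cationic amino acids.

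Clusters 5 and 7 shared 10 of the genes that rose, which is 10 of 37 in cluster 5 and 10 of 14 in cluster 7. They included FABP4, LAMA4, LTBP1, PDK4, KCNK13, ATP2B4, ACSL5 and ACACB. LTBP1 had a log2 fold change of 3.36 in cluster 7 and 2.35 in cluster 5, beside 1.62 across all cells. Both clusters hold cells of the same 8 cultures, so they are not independent samples. FABP4, CD36, LAMA4, PDK4 and LTBP1 were called in cluster 5 in all 10 alternatives run there. The count of genes higher in cluster 5 was 36 without the troglitazone culture of run 6 and 25 without that of run 4. It was 15 to 24 without each of the other 6 cultures, and 25 with cells of at most 20% MT- UMIs.

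CYP3A4 was highest in the hepatocyte-like cluster. In cluster 6 it read 279, 139, 114 and 219 CPM with DMSO and 558, 682, 1051 and 1041 CPM with troglitazone, without overlap (log2 2.14, standard error 0.29, adjusted p 0.0525). In cluster 5 it was at 1.21 ± 1.04 and 3.97 ± 1.496 CPM. Among the clusters that were not tested, cluster 2 had 28.6 ± 21.6 CPM with DMSO and 125 ± 82.5 CPM with troglitazone, from 598 and 2209 UMIs. Clusters 3, 4 and 8 had means of 9.67 to 15.3 CPM with DMSO and 21.8 to 30.4 CPM with troglitazone. CYP2B6 was at 78.5 ± 35.8 and 167 ± 62.1 CPM in cluster 6 (log2 1.20, adjusted p 1). The receptor gene NR1I2, which codes for PXR, stood at 56.3 CPM with DMSO and 53.2 CPM with troglitazone in cluster 6 and at 1.55 and 4.06 CPM in cluster 5. PPARG was more even, at 110 and 102 CPM in cluster 6, 141 and 180 CPM in cluster 5, and 192 and 220 CPM in cluster 7.

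FABP4, CD36 and LAMA4 were next set beside all other treatments of the experiment with at least 30 cells, 34 cultures in all, DMSO and medium included. FABP4 did not exceed 4.49 CPM in any of them, against a lowest troglitazone culture of 63.4 CPM. CD36 reached 21.8 CPM with 0.2 µM rotenone, an inhibitor of mitochondrial complex I, against 24.7 CPM in the lowest troglitazone culture. LAMA4 reached 82.5 CPM with 20 µM cycloheximide, a blocker of protein synthesis, against 102 CPM. No other culture reached the lowest troglitazone culture for LTBP1, KCNK13, ATP2B4, DHRS9, LIPE, PLIN1 or PLIN2.

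PDK4, CYP3A4 and CYP2A6 were among the genes that were less particular. PDK4 was at or above the lowest troglitazone culture in 3 other cultures, all of rotenone, and read 488 CPM with 0.4 µM rotenone in run 6. CYP3A4 was above its lowest troglitazone culture in 1 other culture, with 148 CPM at 0.01 µM brefeldin A, which blocks transport from the endoplasmic reticulum. CYP2A6 was at or above its lowest troglitazone culture, 7.52 CPM, in 3 other cultures. It read 18.8 CPM with 0.1 µM brefeldin A in run 4, above the highest troglitazone culture at 15.5 CPM. Other cultures also reached the lowest troglitazone culture for PLIN4, TXNIP and POR (1 culture each) and for ANGPTL4, VNN1 and CYP2B6 (2 each). For AKR1C1 and AKR1C3, 15 and 27 other cultures did. PLIN4 read 49.6 CPM with 0.2 µM rotenone, against 39.7 CPM in the lowest troglitazone culture. These other treatments are shown as single values with no test.

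**Figure D5:**
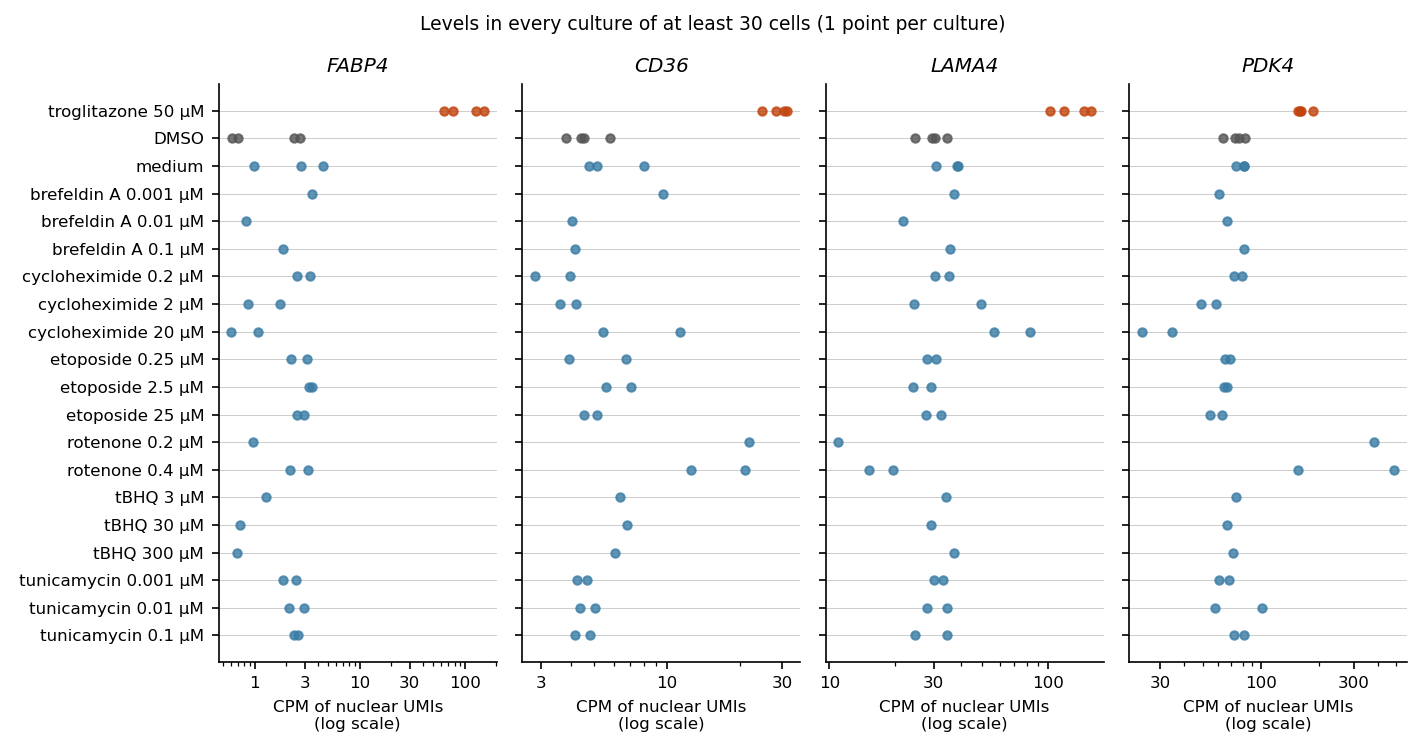
Level in CPM of nuclear UMIs (x axis, log scale) of FABP4, CD36, LAMA4 and PDK4 in every culture of at least 30 cells, with 1 row per treatment (y axis) and 1 point per culture. The troglitazone cultures (orange) stand to the right of all others for FABP4, CD36 and LAMA4, and the rotenone cultures lie at or beyond them for PDK4.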

How the data were processed

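Cells, treatments and runs were taken from the deposited cell table. The authors' deposited matrix holds UMI counts per gene and cell, made with the Parse pipeline, and the submitters' processing notes name the build GRCh38. The sources used here name no counter version, annotation or use of strand. Counts were summed per sample name of at least 30 cells with at least 500 genes. Sums were tested with edgeR 4.0.16 (quasi-likelihood, filterByExpr, Benjamini-Hochberg, threshold 0.05), scaled by UMIs outside MT- genes, or by all UMIs for cells of at most 20% MT- UMIs. Members, gene lists and clusters were chosen with earlier results of these data known. Genes were named if the study names them for troglitazone, if they were among the 12 largest called protein-coding changes (minimum 50 CPM and 50 UMIs), or if they were PPAR targets of at least 10 CPM or cell type markers. Others were named after their values were seen. Clusters came from scanpy 1.11.5 (2000 variable genes, 30 components, 15 neighbours, Leiden resolution 0.5), with 119 genes left out, and were tested if every culture held at least 10 cells. No doublets were removed. Gene positions and classes came from GENCODE 44, where 62625 of 62703 identifiers matched. Of the barcodes without the sublibrary ending, 112 occurred in more than 1 sublibrary among these cells and 0 in 2 cultures. On simulated counts for 19496 genes, 4%, 46%, 98% and 100% of 50 genes each changed 1.5, 2, 4 and 8-fold were recovered, with 10 false calls. Alternatives covered cells, scaling, filters, test (DESeq2 1.42.0, limma 3.58.1), depth, controls, leaving out each culture and a block for the run. Some genes of these lists are not reported here.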

Additional observations from a re-analysis of the deposited data

Results flagged for a closer look

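DGAT2, GPD1 and PDK4 responded differently in 2 clusters of cells, by a test of the difference of their log2 fold changes in cluster 5 minus cluster 6 (adjusted p 0.0238 each, edgeR). The difference was 2.48 for DGAT2, 2.17 for GPD1 and 1.44 for PDK4, and the levels behind them are given above.

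In 4 cases a single culture lay far from the other 3 of their group by Dixon's test at the 95% level, of 58 groups looked at, where chance gives about 1 in 20. These were the DMSO culture of run 5 for DDIT3 (141 CPM) and for POR (156 CPM), and the troglitazone culture of run 4 for HSP90AA1 (206 CPM) and for ENSG00000290549 (35.8 CPM). None of these values changes a direction given above.

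The sample names of run 1 were left out of every test for their few cells. In its 20 troglitazone cells FABP4 had 22 UMIs, or 79.9 CPM of nuclear UMIs, within the range of the other troglitazone cultures. The 4 DMSO cells of run 1 had 1 FABP4 UMI, where a count of 3 would be 32.3 CPM. CYP3A4 stood at 726 CPM in those 20 cells, above the other troglitazone cultures, and LAMA4 at 116 CPM. CD36 had 4 UMIs there, or 14.5 CPM, below every other troglitazone culture. PDK4 was at 112 CPM in the troglitazone cells and 118 CPM in the DMSO cells of run 1, and PLIN2 at 218 and 290.5 CPM, so neither was higher with troglitazone in that run. The DMSO values rest on 11 and 27 UMIs.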

How the results depend on the processing

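Across all cells, 13 genes were called. The count was 0 in cells above 20% MT- UMIs alone (2 cultures a group), 33 with no filter on low counts, 43 with all treatments in the fit, 8 with sums thinned to the smallest culture, 69 with DESeq2 and 5 without run 4. Within clusters it was 2 in cluster 1, 42 in cluster 5 and 0 in cluster 6. It was 10 to 18 under the other settings of cells, scaling, control and test, and 6 to 13 with 1 culture left out, the lowest without the DMSO culture of run 3 or the troglitazone culture of run 5, and 8 without the DMSO cultures of runs 5 or 6. In cells of at most 20% MT- UMIs, 14 genes were called, 5 without run 4 and 8 to 17 with 1 culture left out, with 8 or 9 without the DMSO cultures of runs 3, 4 and 6 and the troglitazone cultures of runs 4 and 5. The cause of these shifts was not tested, beyond the smaller number of cultures, cells or UMIs where a setting removes them.

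The run numbers are shared by both groups. Same-run deviations from the group means correlated at 0.49, 0.60, 0.02 and 0.58 for runs 3 to 6 over 8621 genes. The numbers were not taken to pair the cultures, since run 5 is under 0.1. The main fits therefore leave any effect shared by the cultures of a run in their spread. With the run as a replicate block, 38 genes were called across all cells (33 higher, 5 lower) and 25 with the 20% limit. The troglitazone culture of run 5 correlated best with the DMSO culture of run 6 (0.448), the others with their own run.

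The difference in MT- share was 2.57 percentage points and ranged from -0.953 to 5.92 with 1 culture left out. It was -0.211 without the DMSO culture of run 4 and -0.953 without the troglitazone culture of run 3, so its sign rests on single cultures. Depth limits genes at a few CPM such as LIPE, and changes under 2-fold.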
